A study of Mus musculus with 7 samples.

Results

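Solute carrier (SLC) transporters were examined for differences in DNA methylation between airway macrophages (AMs) of Scnn1b-Tg mice and of wild-type (WT) mice. From the differentially methylated regions (DMRs) that the authors listed, those whose assigned gene has a symbol starting with Slc or Slco and a digit were taken as members, leaving out the imprinted gene Slc38a4 with its 2 DMRs. This gave 34 of 1926 DMRs, assigned to 31 genes, and every gene ID was found in RefSeq. Membership used the gene name alone and no methylation value. A DMR carries the name of the gene with the nearest transcription start site (TSS), however far away that is, so the name does not show that the region acts on the gene.

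Scnn1b-Tg mice overexpress the beta subunit of the epithelial sodium channel in airway epithelium under a club cell promoter, and their airways fill with mucus. AMs were sorted as live CD45.2+ Siglec-F+ CD11c+ cells from the lungs of 3 Scnn1b-Tg and 4 WT samples, all on a C57BL/6 background, and the labels name no treatment. The study's methods describe young female mice with WT littermates as controls, and the labels do not say whether 1 sample is 1 mouse. The assay was whole-genome bisulfite sequencing of tagmented DNA (tWGBS), in which unmethylated cytosines are converted and read as thymines. Each DMR has 1 methylation level per genotype, a fraction from 0 to 1 that the authors averaged over CpGs and samples, so the table gives no values per sample, no spread between samples and no read depth behind a level. No difference below could therefore be tested over samples, and each is given as a description of regions that the authors had already selected for a difference. Which genotype a level belongs to is not stated in the table, and the first level was taken as Scnn1b-Tg because most regions are then lower in these mice, which is the direction the study describes. No lung epithelium marker out of 10 had a DMR in the same list, against 5 of 15 markers of monocytes and interstitial macrophages (3 regions lower and 2 higher in Scnn1b-Tg AMs), 2 of 10 neutrophil and lymphocyte markers, both higher, and 2 of 10 AM markers, both lower. Over all protein-coding genes 6.08% had a DMR, so every list except lung epithelium, the AM list included, lay above that share, each on few genes. The part of other cell types in the SLC values was not tested.

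SLC proteins carry amino acids, sugars, nucleosides, vitamins, metals and ions across the plasma membrane and the membranes of organelles. In macrophages they feed activation programmes: arginine uptake supplies both nitric oxide synthase and arginase, cystine uptake supplies glutathione, and carriers of the lysosome return the products of digested cargo to the cytosol. In mammals methylation of the cytosine in CpG dinucleotides at promoters and enhancers generally accompanies low activity of the element.

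The sequences of 8 SLC regions are shown first, a selection made with their values known: regions near a start site (Slc7a11, Slc28a3, Slc25a5), the intronic regions of Slc7a2 and Slc29a3, and those with the largest loss (Slc5a8) and the lowest WT level (Slc38a2). The selection is not complete: Slc25a53, the SLC region closest to its TSS, and Slc38a9 are not shown. Both of these regions reach into untranslated exons. They were read from the plus strand of GRCm38, which is the assembly behind mm10, 5′ to 3′, with each CpG in capitals and with 1 base added past the deposited end so that the last CpG is whole.
Slc7a2, intron 1, first region (chr8:40865387-40865596): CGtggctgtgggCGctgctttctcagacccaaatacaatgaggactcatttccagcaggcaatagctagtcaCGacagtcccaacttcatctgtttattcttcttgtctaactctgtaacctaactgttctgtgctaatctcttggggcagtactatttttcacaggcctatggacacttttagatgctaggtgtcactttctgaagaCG
Slc7a2, intron 1, second region, the 300 bases richest in CpGs (chr8:40883543-40883842): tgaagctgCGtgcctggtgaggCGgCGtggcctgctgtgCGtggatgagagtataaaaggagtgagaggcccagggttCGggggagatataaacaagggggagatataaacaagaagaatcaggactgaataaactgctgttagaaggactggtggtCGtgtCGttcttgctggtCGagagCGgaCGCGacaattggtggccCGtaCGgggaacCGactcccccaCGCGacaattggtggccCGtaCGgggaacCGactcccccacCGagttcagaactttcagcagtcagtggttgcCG
Slc7a11, exon 1 and intron 1 (chr3:50442924-50443199): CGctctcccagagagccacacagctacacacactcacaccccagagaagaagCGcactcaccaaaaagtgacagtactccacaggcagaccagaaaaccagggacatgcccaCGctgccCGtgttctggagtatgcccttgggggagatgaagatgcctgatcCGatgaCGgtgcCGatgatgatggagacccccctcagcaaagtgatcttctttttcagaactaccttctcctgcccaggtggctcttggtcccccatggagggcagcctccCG
Slc28a3, upstream (chr13:58612008-58612230): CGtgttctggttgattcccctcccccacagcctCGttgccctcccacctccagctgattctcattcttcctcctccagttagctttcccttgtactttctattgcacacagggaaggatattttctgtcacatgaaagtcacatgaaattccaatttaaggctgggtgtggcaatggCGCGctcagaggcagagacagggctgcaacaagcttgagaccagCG
Slc29a3, intron 2 (chr10:60744552-60744767): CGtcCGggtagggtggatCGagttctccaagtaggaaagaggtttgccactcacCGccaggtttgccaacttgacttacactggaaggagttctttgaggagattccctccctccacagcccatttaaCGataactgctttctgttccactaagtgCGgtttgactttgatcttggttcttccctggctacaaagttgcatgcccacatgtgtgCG
Slc25a5, intron 1 (chrX:36796400-36796602): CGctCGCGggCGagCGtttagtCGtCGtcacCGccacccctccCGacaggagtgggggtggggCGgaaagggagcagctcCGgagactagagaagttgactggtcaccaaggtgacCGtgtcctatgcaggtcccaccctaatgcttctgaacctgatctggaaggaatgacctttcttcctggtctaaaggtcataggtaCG
Slc38a2, intergenic (chr15:96745050-96745219): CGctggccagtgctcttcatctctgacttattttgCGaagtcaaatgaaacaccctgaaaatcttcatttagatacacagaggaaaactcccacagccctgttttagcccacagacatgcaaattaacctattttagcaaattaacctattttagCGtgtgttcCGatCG
Slc5a8, within an Ano4 intron (chr10:88964363-88964442): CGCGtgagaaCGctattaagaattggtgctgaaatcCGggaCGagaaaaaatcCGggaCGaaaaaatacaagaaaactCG
The Slc25a5 region has its CpGs packed into the first part of the stretch, whereas those of Slc7a2 (first region) and Slc29a3 are scattered. The number of capital pairs equals the number of CpGs in the authors' table in all regions shown whole except Slc5a8, where 8 stand in the reference and 6 were counted by the authors. In all, 31 of the 34 SLC regions had equal numbers.

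Loss of methylation was the commoner change at SLC genes. Of 34 DMRs, 27 (79.4%, exact Clopper-Pearson 95% interval 62.1 to 91.3, which covers counting of regions only) were lower in Scnn1b-Tg AMs, beside 72.9% of all DMRs, and 7 were higher, beside 27.1% of all DMRs. Where at least 10 CpGs were required, only 6 SLC regions were left and the direction turned. Of these, 2 (33.3%) were lower, beside 63.2% of all 269 DMRs of that size, and the median difference was 0.136. The share over all DMRs of any size, 72.9%, lies inside the interval given for all 34. The split of SLC regions was thus not distinguishable from that of the list. The median difference (Scnn1b-Tg level minus WT level) was -0.226 for SLC DMRs and -0.218 for all DMRs, and the SLC values ranged from -0.488 to 0.231. Regions with a loss went from a median level of 0.802 in WT to 0.546 in Scnn1b-Tg AMs, and those with a gain from 0.280 to 0.480. At a WT level of 0.8 or more all 14 SLC regions were lower in Scnn1b-Tg AMs, as were all 832 such regions of the list. Of 6 SLC regions with a WT level under 0.5 only Slc29a3 was lower. A level is a fraction and regions were selected for a difference, so a high WT level leaves little room for a gain. A low WT level likewise leaves little room for a loss, so this split says nothing particular about SLC genes.

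**Figure D1:**
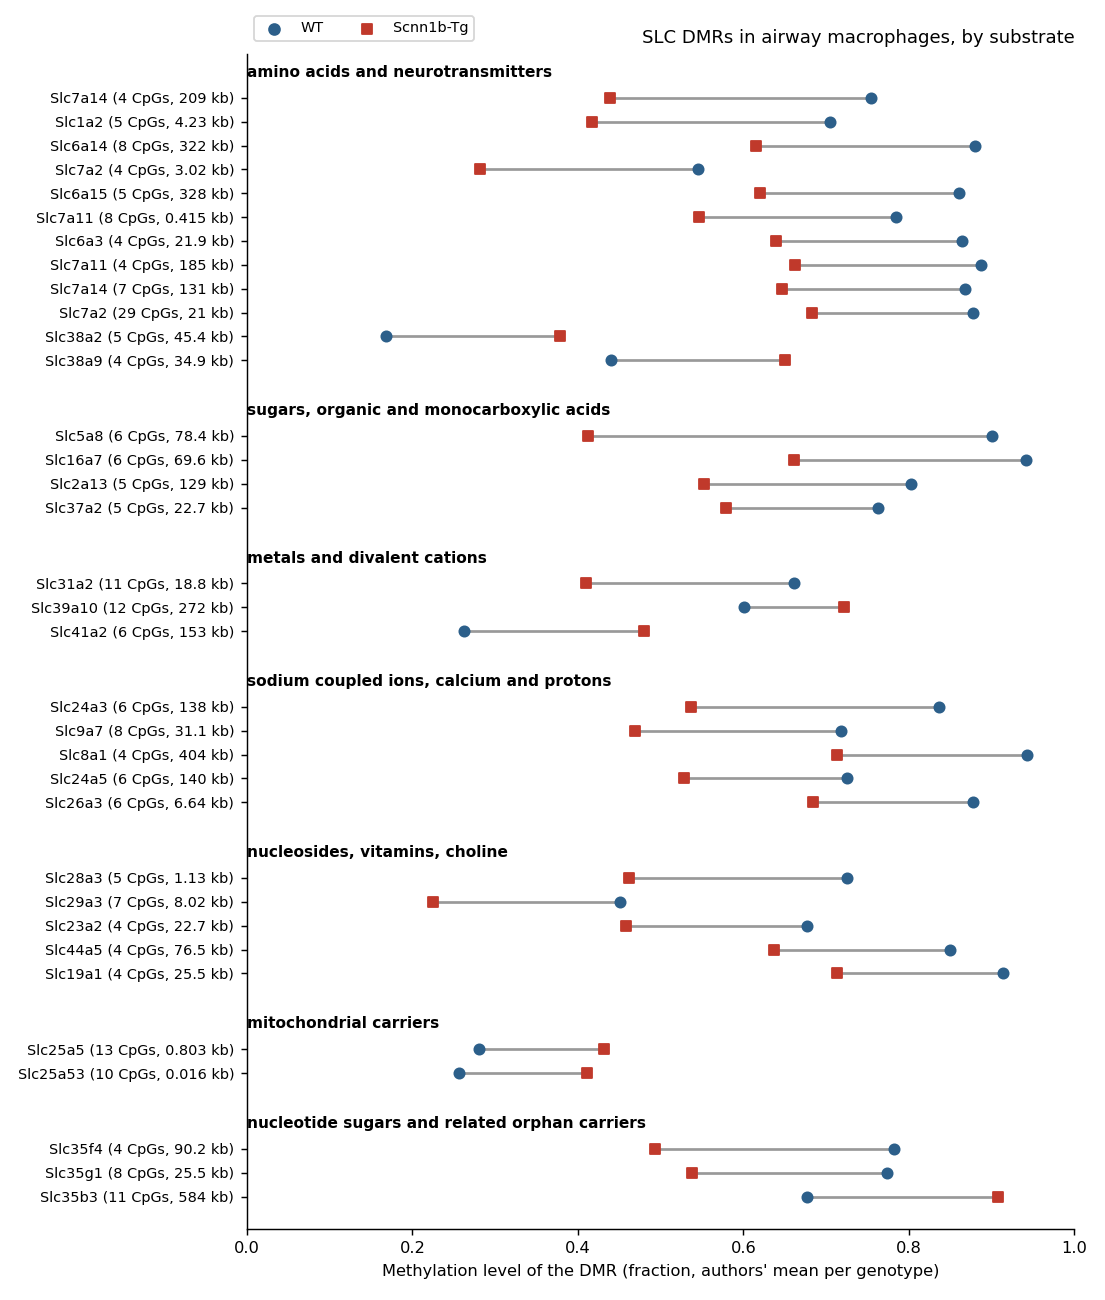
Methylation levels of the 34 SLC DMRs, with the level as a fraction on the horizontal axis and one row per region, labelled with its gene, number of CpGs and distance to the TSS and grouped by substrate. Circles are the authors' mean in WT and squares that in Scnn1b-Tg AMs, with no error bars because the table used here gives means only. In 27 pairs the square is on the left, and the 7 pairs with the square on the right include both mitochondrial carriers.

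The list reached 31 of 388 protein-coding SLC genes (7.99%) and 1330 of 21883 protein-coding genes in all (6.08%). SLC genes are longer, with a median of 29.6 kb against 17.2 kb for all protein-coding genes, and the part of gene length in these shares was not tested. DMRs fell in 22 of 52 families. SLC7 had the most, with 6 regions on 3 genes. No DMR was assigned to any of 39 genes of the SLC22 and SLCO families, which carry organic anions and cations. The 63 genes of 21 families outside the substrate groups used here had none either. These groups were drawn with earlier results of these data known and hold all 22 families with a DMR. The absence outside them thus follows from the grouping and is not a finding. Whether none among the 39 SLC22 and SLCO genes is fewer than the 7.99% over all SLC genes would give was not tested.

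The SLC7 family, which holds carriers of cationic amino acids and exchangers of other amino acids, had the most DMRs, all with losses. Of all DMRs 72.9% were losses, and neither this family nor any substrate group below was tested against that share. Slc7a2 encodes a transporter of arginine, lysine and ornithine that macrophages use when arginine demand rises. Its first region lay 3.02 kb downstream of the TSS in intron 1 of 11 on chromosome 8 (40865387 to 40865595), with 4 CpGs and a level of 0.281 in Scnn1b-Tg against 0.545 in WT AMs by the authors' means. This was the second-lowest Scnn1b-Tg level of all SLC losses. Its second region lay 17.8 kb further into the same intron (40883379 to 40883899), with 29 CpGs, the highest number at any SLC gene, at 0.683 against 0.877. Both regions were unlike in sequence. The first held no base that the reference marks as repeat and all its 31-base words (31-mers) occurred once in the reference, whereas the second was marked as repeat throughout and 5.69% of its 31-mers occurred once.

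The shown part of the second Slc7a2 region holds the same 42 bases at 2 places whose starts are 40 bases apart, so that the copies overlap at their ends, with 5 CpGs in each copy, and these 42 bases occur 84 times on the reference chromosomes. The part of read placement among these copies in the level was not tested.

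Slc7a11, the transport subunit of the cystine and glutamate exchanger, also had 2 regions, both with losses. The region at its promoter covered 8 CpGs on chromosome 3 (50442924 to 50443198), 0.415 kb downstream of the TSS, and stood at 0.546 in Scnn1b-Tg against 0.785 in WT AMs in the authors' table. On RefSeq transcripts 215 of its bases and 6 of its CpGs were coding sequence and the rest intron. The second region lay in intergenic sequence 185 kb upstream of the TSS, with 4 CpGs at 0.662 against 0.887. Every 31-mer of both regions was single-copy.

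Slc7a14, a lysosomal relative of the arginine transporters known mainly from neurons and retina, had 2 intergenic regions 131 and 209 kb upstream of its TSS and 77.8 kb from each other. They stood at 0.646 against 0.867 (7 CpGs) and at 0.439 against 0.754 (4 CpGs spread over 874 bp) by the authors' means. Both were almost wholly repeat sequence, with 0 and 43.7% of their 31-mers single-copy. Slc7a2, Slc7a11 and Slc7a14 were the SLC genes with more than 1 DMR, and both DMRs of each had the same direction, as in 163 of 233 genes with 2 or more DMRs in the whole list (70.0%).

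Other amino acid and neurotransmitter carriers with losses were Slc1a2, Slc6a3, Slc6a14 and Slc6a15. Slc1a2 is the main glutamate transporter of astrocytes. Its region, 4.23 kb upstream of the TSS used by the authors, lay within intron 1 of a longer transcript and had 5 CpGs in single-copy sequence at 0.417 in Scnn1b-Tg against 0.705 in WT AMs (authors' means). The region of Slc6a3, the dopamine transporter gene, in intron 6 of 14, was 55 bp long, stood at 0.639 against 0.865 and had no single-copy 31-mer. The regions named for Slc6a14, which takes up neutral and cationic amino acids in epithelium, and for Slc6a15, a carrier of branched-chain amino acids in brain, lay 322 and 328 kb from their TSS.

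The SLC38 family carries glutamine and other small neutral amino acids, and both of its genes taken as members went the other way. The imprinted SLC38 gene Slc38a4, left out here, had 2 regions, both lower, so the family as a whole was split. Slc38a2 is induced in many cells when amino acids are scarce. Its region, 45.4 kb upstream of the TSS on chromosome 15 (96745050 to 96745218, 5 CpGs), had the lowest WT level of all SLC regions, 0.169, and reached 0.378 in Scnn1b-Tg AMs in the authors' table. Slc38a9 is the lysosomal arginine sensor that signals to the growth kinase mTOR. Its region lay in the 3′ untranslated region on chromosome 13 (112735155 to 112735239, 4 CpGs), with 0.650 against 0.440. All 31-mers of the Slc38a2 and Slc38a9 regions were single-copy. By RefSeq transcripts the TSS nearest to the Slc38a9 region belonged to Plpp1 and not to Slc38a9, although the region is inside Slc38a9.

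Carriers of sugars and of organic and monocarboxylic acids had 4 regions, each on a different gene and each with a loss (72.9% of all DMRs). Slc37a2, an exchanger of glucose-6-phosphate and phosphate in the endoplasmic reticulum that macrophages express strongly, had the smallest loss among SLC genes. Its 5 CpGs in the last intron on chromosome 9 (37232841 to 37232992) stood at 0.579 in Scnn1b-Tg and 0.762 in WT AMs by the authors' means, in single-copy sequence. Slc2a13, a proton-coupled carrier of myo-inositol, had a region in intron 3 of 9 at 0.552 against 0.802, with 51.0% of 31-mers single-copy. Slc16a7, a carrier of lactate and pyruvate, had one in intron 3 of 5 at 0.661 against 0.941, with 11.6% of 31-mers single-copy.

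The largest loss under an SLC name was assigned to Slc5a8, a sodium-coupled carrier of monocarboxylates, and ranked 6 of 1926 by absolute difference. Its 6 CpGs in 79 bp on chromosome 10 (88964363 to 88964441) stood at 0.412 in Scnn1b-Tg against 0.900 in WT AMs, a difference of -0.488. The region is not in Slc5a8 but 78.4 kb from its TSS, inside an intron of the ion channel gene Ano4. None of its 31-mers was single-copy, and they occurred a median of 76.5 times in the reference. The part of this repetition in the level was not tested.

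**Figure D2:**
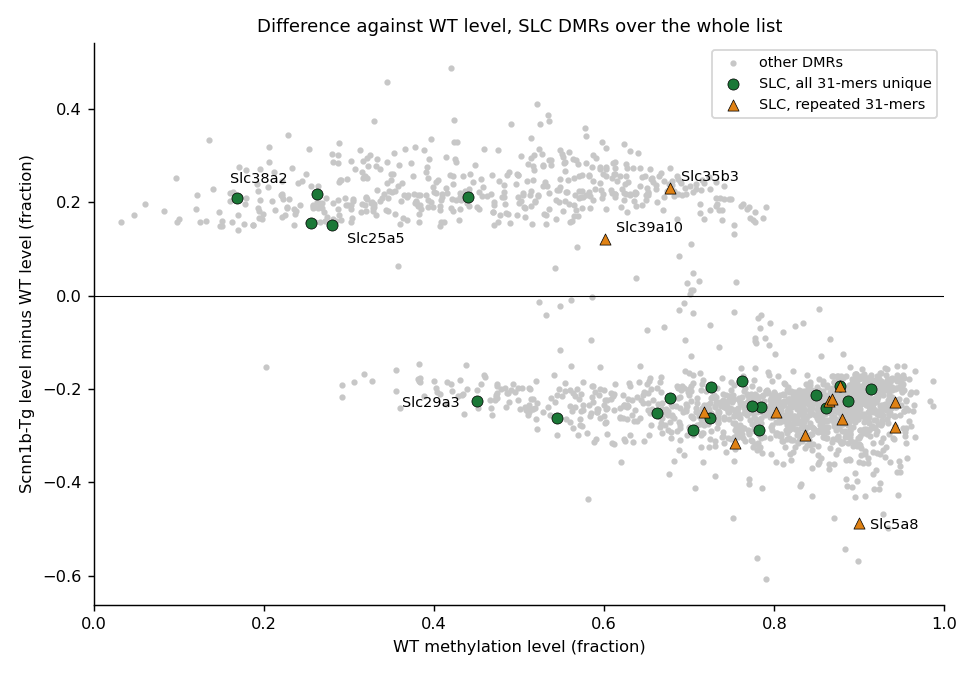
Difference between genotypes (vertical axis, Scnn1b-Tg level minus WT level) against the WT level (horizontal axis), both as fractions. Grey points are the 1890 DMRs of genes outside the SLC families, circles are SLC DMRs whose 31-mers all occur once in the reference, and triangles are SLC DMRs with repeated 31-mers. Slc5a8, the largest loss, is a triangle far below the other SLC points, Slc39a10 is the gain nearest to 0, and 5 of the 7 gains are circles.

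Carriers of nucleosides, vitamins and choline had 5 regions on 5 genes, all with losses, beside 72.9% of all DMRs. Slc29a3 encodes a nucleoside transporter of the lysosome, and its loss causes a macrophage disorder in mice and humans. Its region in intron 2 of 5 on chromosome 10 (60744552 to 60744766, 7 CpGs) had the lowest Scnn1b-Tg level of all SLC regions, 0.225, against 0.451 in WT AMs in the authors' table. Slc28a3, a sodium-coupled nucleoside importer, had a region 1.13 kb upstream of its TSS on chromosome 13 (58612008 to 58612229, 5 CpGs) at 0.462 against 0.725. Both regions were single-copy throughout.

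The vitamin carriers were Slc23a2, which takes up ascorbate, and Slc19a1, the reduced folate carrier. Slc23a2 had a region in intron 1 at 0.458 against 0.677 (4 CpGs, authors' means), and Slc44a5, of the choline transporter-like family, one in intron 1 of 21 at 0.637 against 0.849. The region assigned to Slc19a1, at 0.713 against 0.913, lay within an intron of the collagen gene Col18a1, 25.5 kb from the TSS used by the authors. The sequence of these 3 regions was single-copy.

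Carriers of metals were split. Slc31a2, a low-affinity copper carrier, had a region 18.8 kb upstream of its TSS on chromosome 4 (62267138 to 62267605), where 11 CpGs stood at 0.409 in Scnn1b-Tg against 0.662 in WT AMs by the authors' means. The magnesium carrier Slc41a2 has the TSS nearest to a gain of 6 CpGs on chromosome 10 (83184672 to 83184927, 0.480 against 0.263), but this region lay 153 kb away from its TSS inside an intron of the sulfotransferase gene Chst11. Both were single-copy. The zinc importer Slc39a10 was assigned a gain 272 kb upstream, at 0.722 against 0.601, in which 3.69% of 31-mers were single-copy and the reference holds 17 CpGs where the table counts 12.

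Exchangers of calcium, protons and anions had 5 intergenic regions, all with losses (beside 72.9% of all DMRs), between -0.193 and -0.299. They were assigned to Slc8a1, the sodium and calcium exchanger of heart and other tissues, Slc24a3 and Slc24a5, potassium-dependent exchangers of the same ions, Slc9a7, a proton exchanger of the Golgi, and Slc26a3, an intestinal exchanger of chloride and bicarbonate. The Slc26a3 region was the closest to its gene, 6.64 kb upstream, at 0.684 in Scnn1b-Tg against 0.877 in WT AMs (authors' means). The Slc24a3 region had the largest loss of the 5, at 0.537 against 0.837, with 6 CpGs over 1888 bp of which 10.1% of 31-mers were single-copy. The Slc8a1 region was the farthest, 404 kb upstream, at 0.713 against 0.942, and had no single-copy 31-mer. The SLC35 family of nucleotide sugar carriers and their orphan relatives had 3 intergenic regions, with losses at Slc35f4 (0.493 against 0.782) and Slc35g1 (0.537 against 0.773). Slc35b3, which brings the sulfate donor into the Golgi, was named for the largest SLC gain, 0.908 against 0.677, from 584 kb away and in sequence of which 15.9% was single-copy by 31-mers.

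Mitochondrial carriers had 2 promoter regions, both higher in Scnn1b-Tg AMs, beside 27.1% of all DMRs. Slc25a5 encodes the main exchanger of ADP and ATP of dividing cells, and Slc25a53 a carrier of unknown substrate. The Slc25a5 region was in intron 1, 0.803 kb downstream of the TSS on chromosome X (36796400 to 36796601), and its 13 CpGs stood at 0.432 in Scnn1b-Tg against 0.280 in WT AMs by the authors' means. The Slc25a53 region lay 0.016 kb from the TSS on chromosome X (137038173 to 137038286). Its 10 CpGs, 6 of them in the 5′ untranslated exon, stood at 0.411 against 0.256. The gains, 0.152 and 0.155, were nearly equal and were, after Slc39a10 (0.121), the smallest SLC differences in absolute size. Both were single-copy. SLC25 is the largest SLC family with 47 genes, and no other member had a DMR. In females CpG-rich promoters of many X-linked genes are methylated on the inactive X chromosome. Promoter DMRs on chromosome X numbered 22 in the list, 14 lower and 8 higher in Scnn1b-Tg AMs, and the part of the inactive X in these levels was not tested.

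Of the 4 promoter regions, Slc7a11 and Slc28a3 on autosomes were lower and both X-linked mitochondrial carriers were higher, an even split like that of all promoter DMRs, of which 106 were lower and 105 higher. Of 13 regions classed by the authors as intronic, 12 were lower and only that assigned to Slc41a2 was higher, beside 75.8% lower among all 513 intronic DMRs. Intergenic regions were lower in 13 of 16 cases (81.3%), beside 77.5% of all 1112. On RefSeq transcripts 14 SLC regions lay in the gene they are named for, 3 lay only in another gene (Ano4, Col18a1 and Chst11) and 17 lay outside genes. SLC regions lay a median of 40.1 kb from the TSS, beside 46.7 kb for all DMRs, and 6 regions were over 200 kb away.

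**Figure D3:**
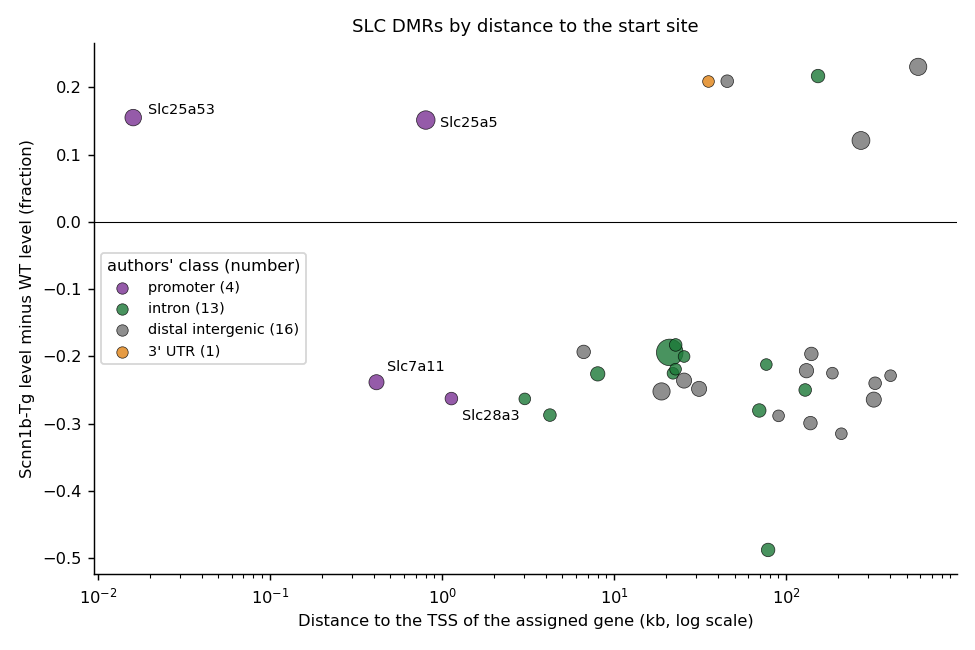
Difference between genotypes (vertical axis, fraction) against the distance to the TSS of the assigned gene (horizontal axis, kb on a log scale) for the 34 SLC DMRs, coloured by the authors' annotation class, with larger points for more CpGs. Below the zero line lie losses at nearly all distances. Of the 4 regions within 3 kb, Slc25a5 and Slc25a53 lie above the line and Slc7a11 and Slc28a3 below it.

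Of 37 SLC genes with a known role in macrophages, a list written with earlier results of these data known, 7 had a DMR (18.9%, against 7.99% of all SLC genes). They were Slc7a2, Slc7a11, Slc29a3, Slc31a2 and Slc37a2, with 7 losses, and Slc38a2 and Slc38a9, with 1 gain each. Slc11a1 and Slc40a1, the iron carriers of phagosome and plasma membrane, Slc2a1 and Slc16a3, which carry glucose and lactate, and the arginine transporter Slc7a1 were on that list without a DMR. The table holds no level outside DMRs, so nothing is known here about methylation at those genes.

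In sequence, SLC regions had a median of 6 CpGs (5 in all DMRs), 2.96 CpGs per 100 bp (3.13) and a GC content of 52.2% (48.7%). Repeat-marked bases made up 50% or more of 15 of 34 SLC regions (44.1%, beside 46.1% of all DMRs). All 31-mers were single-copy in 21 SLC regions (61.8%), of which 16 were lower and 5 higher, beside 840 of all DMRs (43.6%), of which 63.6% were lower. None of the regions had another DMR within 10 kb, as 79 of all DMRs did.

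**Figure D4:**
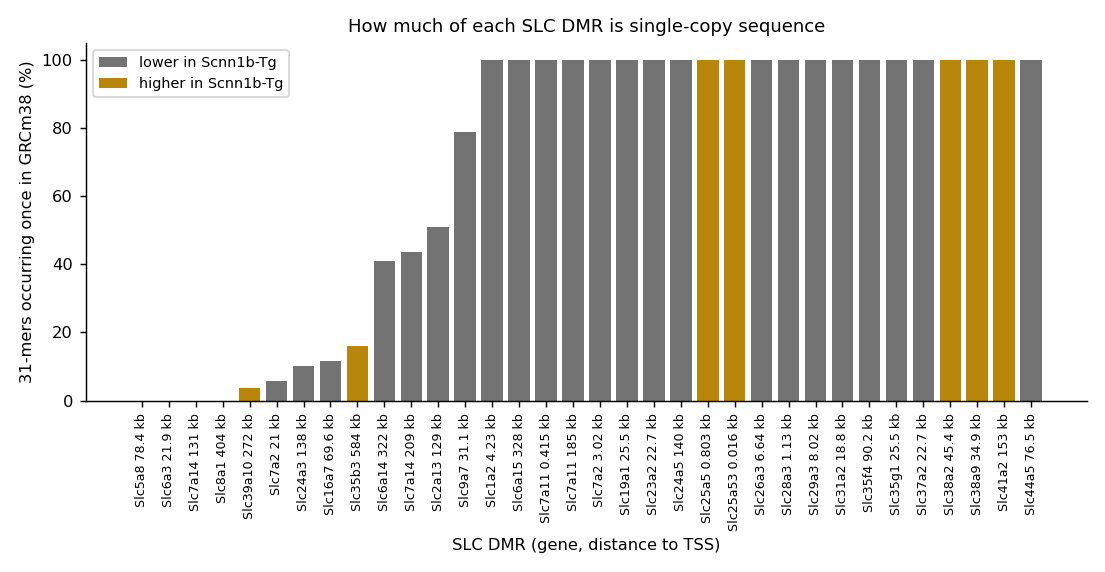
Share of the 31-mers of each SLC DMR that occur once on the GRCm38 chromosomes, in percent (vertical axis), with one bar per region, named by gene and distance to the TSS. Grey bars were lower and gold bars higher in Scnn1b-Tg AMs. Slc5a8, Slc6a3, the nearer Slc7a14 region and Slc8a1 stand at 0, and 21 bars reach 100.

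Windows of 300 bp centred on each region were searched on both strands for the letters of binding motifs of macrophage factors. AP-1 (TGANTCA) occurred in 3 SLC windows (8.82%, beside 8.41% of all DMR windows), at Slc29a3, Slc31a2 and Slc41a2. The Slc29a3 match was in the window only, as the region shown above holds none. PU.1 (GAGGAAGT) occurred at Slc38a9 alone (2.94%, beside 1.97%), C/EBP (TTGCNNAA) in 4 windows (11.8%, beside 13.6%), Slc38a2 among them, STAT (TTCNNNGAA) in 5 (14.7%, beside 11.9%), Slc37a2 among them, and an E-box (CACGTG) at Slc26a3 alone (2.94%, beside 5.61%). The short IRF core (AANNGAAA) occurred in 14 windows (41.2%, beside 37.2%), including those of Slc28a3 and Slc29a3 and that of the Slc7a11 region 185 kb upstream, whereas the Slc7a11 promoter window held none. The motifs may overlap each other, and a match is a run of letters and not a measured binding site.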

How the data were processed

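Airway macrophage DNA of 3 Scnn1b-Tg and 4 WT samples was studied by tWGBS. The submitters' processing notes name Trimmomatic 0.36, BWA 0.7.8, Picard and MethylDackel on build mm10. By the study's methods profiles were smoothed with bsseq and DMRs called with DSS. The deposited table holds, per DMR, the methylation level of each genotype as a fraction, which the authors averaged over the CpGs and samples, and as other values the CpG number, length and TSS distance. Smoothing shares reads between neighbouring CpGs. The authors' difference and area statistic columns hold their own comparison and were not used. The difference was computed here from both levels. The depth per region is unknown.

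All 1926 regions start and end on a CpG of GRCm38. Gene parts came from RefSeq transcripts with NM or NR accessions, repeats from the reference's lower-case bases, and 31-mers were counted on both strands of chromosomes 1 to 19, X and Y. Functions were tested on simulated data. The rule for naming was to name every member, with levels for regions inside the gene or within 3 kb, genes with 2 or more regions, the 3 largest losses and gains and the macrophage list. Members and lists were chosen with earlier results of these data known. Python 3.11.15, pandas 2.3.3, scipy 1.17.1 and matplotlib 3.10.9 were used.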

Additional observations from a re-analysis of the deposited data

How the results depend on the processing

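A minimum difference of 0.1 removed no SLC region. The study's methods already required that difference when DMRs were called, so this alternative could change little. By the levels used here 37 of all 1926 regions were under it. Under the other alternatives, except a minimum of 10 CpGs, between 72.2 and 85.2% of SLC regions were lower and the median difference lay between -0.239 and -0.219. With at least 10 CpGs required, both turned: 33.3% of the 6 regions left were lower, with a median difference of 0.136 (63.2% of all DMRs of that size were lower). These 6 regions were Slc7a2, Slc31a2, Slc25a5, Slc25a53, Slc35b3 and Slc39a10. The number of SLC genes with a DMR, 31, moved to 18 with at least 6 CpGs, 6 with at least 10, and 17 within 50 kb of the TSS. Among alternatives chosen after seeing the data it was 20 with single-copy sequence only and 14 inside the gene or within 3 kb. By the nearest RefSeq TSS Slc35b3, Slc38a9 and Slc6a14 dropped out and Slc66a1 came in. Adding families under other symbols brought in Rhbg and Tmem165. No paired analysis was possible because the table holds no value per sample, so no replicate could be left out either. With depth unknown no error can be put on a level, and 10 SLC regions rest on 4 CpGs.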

Other observations

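Slc38a4, left out of the account above as an imprinted gene, had 2 regions, both lower in Scnn1b-Tg AMs. With them the SLC regions numbered 36, of which 80.6% were lower. Slc38a2 has its nearest other DMR at Slc38a4, 309 kb away, and the directions at these neighbouring genes of one family are opposite. The regions of genes that belong to SLC families under other symbols, Rhbg and Tmem165, were lower as well.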
